A study of Mus musculus with 4 samples.

Results

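The genes followed here are Foxp3, the transcription factor that defines regulatory T (Treg) cells, and 9 factors that induce it, restrain it or act with it. The members are Foxp3, Ikzf1, Ikzf2, Ikzf4, Foxo1, Foxo3, Foxp1, Runx1, Cbfb and Satb1, and each was found by the Ensembl ID that carries its symbol, so they make up 10 of the 47729 gene rows in the count table. All 10 passed the filter on low counts and are among the 13732 genes tested. RNA was sequenced from C57BL/6 spleen T cells cultured for 4 days as induced Treg (iTreg) cells, which gain Foxp3 outside the thymus when activated with TGF-β. Every culture held recombinant human TGF-β at 5 ng/mL, recombinant human IL-2 at 100 U/mL, and antibodies against IL-4 and IFN-γ at 5 µg/mL each. The FeSO4 group also received 50 µM ferrous sulfate and the Mock group received PBS, with 2 libraries per group. The study's methods describe naive CD4 T cells activated through CD3 and CD28, and call the cells wild type. The study used young adult mice in general, and the labels of these libraries give no age and no genotype beyond the strain. The cultures were not sorted for Foxp3 as far as the sources used here say. In this bulk RNA, fewer Foxp3+ cells and less Foxp3 RNA per cell therefore cannot be told apart. For iTreg cultures, the study reports from intracellular staining that iron sulfate changed the induction of Foxp3 little. That readout is of protein in single cells, and its relation to the RNA levels given here was not tested. According to the methods the libraries came as pairs from independent experiments, but nothing in the labels says that the replicate number marks an experiment or that libraries came from separate animals, so p-values measure the spread between these libraries.

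Foxp3 is switched on at its own promoter and at intronic enhancers, where the factors of T cell receptor, TGF-β and IL-2 signaling meet Foxo1, Foxo3, Satb1 and the Runx1-Cbfb pair. Once made, the Foxp3 protein works in complexes, among them those with Runx1-Cbfb, its forkhead relative Foxp1, and the Ikaros family members Ikzf1 (Ikaros), Ikzf2 (Helios) and Ikzf4 (Eos). Foxo proteins are held in the cytoplasm when Akt phosphorylates them, a control that RNA levels do not show.

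The gene rows held 35183187 to 40859178 reads per library. The label of the cells was compared with marker genes. Levels are given in CPM, read counts scaled to a common library size. The 7 T cell markers summed to 3019 and 2865 CPM in Mock against 3340 and 3353 CPM in FeSO4, and 4 of them were higher at an edgeR adjusted p under 0.05 (log2 fold changes of 0.50 for Cd3g, 0.38 for Cd3d, 0.21 for Cd28 and 0.19 for Trac). This count was 2 with scaling by the upper quartile or by library size only, and was also smaller with any library left out. Il2ra, the IL-2 receptor α chain and a Treg marker, stood at 1395 to 1586 CPM over the 4 libraries. Cd8a and Cd8b1 summed to 9.04 to 11.02 CPM. The 4 NK markers summed to 0.937 and 1.05 CPM in Mock against 1.26 and 0.567 CPM in FeSO4, nearly all of it Eomes (19 to 44 reads), with Ncr1 and Klrb1c at 0 reads in all 4 libraries. The B cell marker Ms4a1 had 1 read in Mock replicate 1 and 0 elsewhere. The 6 myeloid markers summed to 5.05 CPM in Mock replicate 1 and to 0.350 to 0.9996 CPM in the other libraries, and Lyz2 had 164 and 8 reads in the Mock libraries and 0 in both FeSO4 libraries. The 5 B cell markers summed to 169 and 162 CPM in Mock against 248 and 277 CPM in FeSO4, nearly all of it Ighm. The 4 red cell or platelet markers summed to 24.9 and 19.8 CPM in Mock against 37.6 and 32.6 CPM in FeSO4, nearly all of it Hba-a1, with Ppbp at 0 reads. The 8 markers of other helper lineages summed to 77.6 and 75.9 CPM in Mock against 76.7 and 82.2 CPM in FeSO4. Most of this sum was Gata3, which was lower (-0.27), while 4 of the 8 were higher, from low levels: Il4 (2.27), Il17a (1.89), Tbx21 (1.79) and Ifng (1.69). The higher calls among these 8 markers were 3 with DESeq2, with limma-voom and with at least 10 counts in every library. They were also fewer with any library left out. Tbx21, the lineage factor of Th1 cells, had 60 and 55 reads in Mock and 191 and 153 in FeSO4. The part of these markers in the members' changes was not tested.

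The 250 bases upstream of the transcript starts of 8 members were read from RefSeq (build GRCm38.p6), 17 windows in all, while Ikzf2 and Ikzf4 were not matched there. They are shown for Foxp3, which has 2 starts, for Foxp1, the member whose levels followed those of Foxp3 most closely, and for Satb1, which moved the other way. Sequences run 5′ to 3′ on the gene's strand and end at the base before the start. Capitals mark GGAAA on either strand (TTTCC as printed where it lies on the other strand), the core of sites for NFAT factors.
Foxp3 first start, chrX:7579426-7579675, plus strand: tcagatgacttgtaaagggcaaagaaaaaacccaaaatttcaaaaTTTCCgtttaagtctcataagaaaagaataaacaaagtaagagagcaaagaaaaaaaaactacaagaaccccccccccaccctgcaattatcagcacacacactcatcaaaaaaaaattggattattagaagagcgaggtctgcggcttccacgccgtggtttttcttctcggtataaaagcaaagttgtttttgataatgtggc
Foxp3 second start, chrX:7580233-7580482, plus strand: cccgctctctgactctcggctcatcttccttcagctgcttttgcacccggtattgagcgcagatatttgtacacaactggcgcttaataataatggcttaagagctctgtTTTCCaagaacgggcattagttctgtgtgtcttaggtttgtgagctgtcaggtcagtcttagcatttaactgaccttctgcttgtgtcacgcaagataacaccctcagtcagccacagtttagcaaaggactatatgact
Foxp1 first start, chr6:99520994-99521243, minus strand: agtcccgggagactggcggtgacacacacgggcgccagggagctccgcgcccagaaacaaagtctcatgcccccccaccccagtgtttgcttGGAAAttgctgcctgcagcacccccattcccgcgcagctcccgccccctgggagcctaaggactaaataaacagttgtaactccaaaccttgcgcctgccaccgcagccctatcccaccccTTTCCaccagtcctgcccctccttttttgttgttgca
Satb1 first start, chr17:51833291-51833540, minus strand: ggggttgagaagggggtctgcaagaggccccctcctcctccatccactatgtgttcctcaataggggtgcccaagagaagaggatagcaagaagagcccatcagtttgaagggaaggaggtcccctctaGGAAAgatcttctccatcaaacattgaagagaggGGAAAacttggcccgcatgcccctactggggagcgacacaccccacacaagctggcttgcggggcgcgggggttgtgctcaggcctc

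In the Foxp3 windows GGAAA occurred once each, on the opposite strand, from -205 to -201 before the first start and from -140 to -136 before the second. The first Foxp1 window held 2 matches, and its windows 2 and 3 held 0 each. The first Satb1 window held 2, and Satb1 windows 2 and 3 held 0 each. Satb1 windows 4 and 5 overlap, and the 1 match that each held lies on the same bases. Over the 17 windows, some of which overlap or belong to the same gene, 9 held GGAAA on either strand, beside 55.6% of all 32851 promoter windows of this length. The forkhead motif TGTTTAC was in 0 of the 17 windows (3.17% of all windows held it) and the Runx motif TGTGGT in 0 (14% of all windows). The shorter forkhead core TGTTT, which TGTTTAC contains, was in 11 of 17 (46.4% of all windows), and the Ikaros core GGGAA, which can overlap GGAAA, also in 11 of 17 (56.2% of all windows). A match describes letters and not a bound site.

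Foxp3 RNA fell in FeSO4. It stood at 587 and 693 CPM in Mock replicates 1 and 2, and at 376 and 472 CPM in FeSO4 replicates 1 and 2. Both FeSO4 libraries lay below both Mock libraries, and in each group replicate 2 was the higher one. The mean went from 640 ± 75.5 to 424 ± 67.9 CPM (SD, n = 2 each), a change of -33.8% in the fit. The log2 fold change was -0.59 ± 0.09 (SE; 95% interval -0.79 to -0.40; edgeR adjusted p = 0.000223), and its p ranked 311 among the genes tested. Between libraries of the same number the log2 ratio was -0.64 and -0.56. With all 22164 genes of at least 1 count kept in the fit, the adjusted p was 0.067 at a log2 fold change of -0.59. The Foxp3 gene, ENSMUSG00000039521, spans 7156802 to 7172369 on the plus strand of chromosome X in mm9, and 1230 of its 3953 exonic bases overlap exons of 4930524L23Rik on the same strand and of Ppp1r3f and Ccdc22 on the opposite strand, so its count may have lost or gained reads there.

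**Figure D1:**
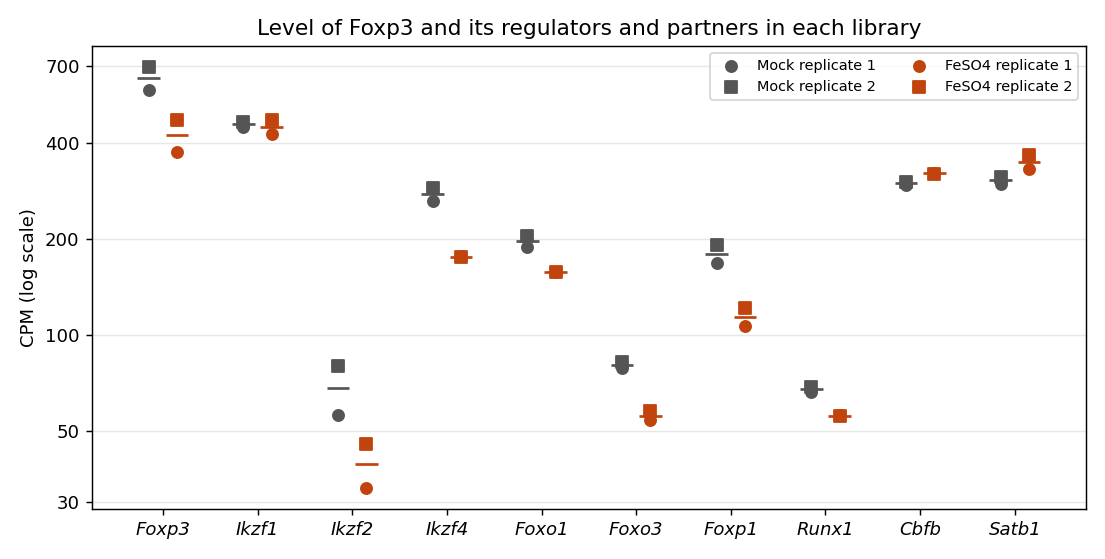
Level of each member in CPM (log axis) in the 4 libraries. Circles are replicate 1 and squares replicate 2, gray for Mock and orange for FeSO4, and each short line is the mean of a group. Foxp3 lay at 587 and 693 CPM in Mock and at 376 and 472 CPM in FeSO4, while the libraries of Ikzf1 overlapped.

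Of the 10 members, 7 were lower in FeSO4, 1 was higher and 2 did not pass the threshold of an adjusted p under 0.05. Over all genes tested, 9.17% were lower, 10.9% were higher and 20% passed in either direction. The 7 lower members were Foxp3, Ikzf2, Ikzf4, Foxo1, Foxo3, Foxp1 and Runx1. In all 7, both FeSO4 libraries lay below both Mock libraries, which was so for 29.4% of genes tested. The study's cutoffs were a log2 fold change of at least 0.5 in size and p under 0.05 without adjustment. The study set them on DESeq2 results, and here they were set on the edgeR fit. By these cutoffs, 5 members were lower (Foxp3, Ikzf2, Ikzf4, Foxo3 and Foxp1), beside 5.73% of genes tested, and 0 were higher. The median log2 fold change was -0.42 over the members and 0.00 over all genes tested. The members are abundant (mean 53.9 to 532 CPM) and have long exon models (2911 to 11934 bases, where the median of the genes tested was 3493). Among the 2679 genes tested whose level and exon length both lie in these ranges, 15.2% were lower, 13% were higher, 35.5% had both FeSO4 libraries below both Mock libraries, and the median was -0.01. With all genes of at least 1 count kept, 3 members were called lower (Ikzf4, Foxo3 and Foxp1) and 0 higher.

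**Figure D2:**
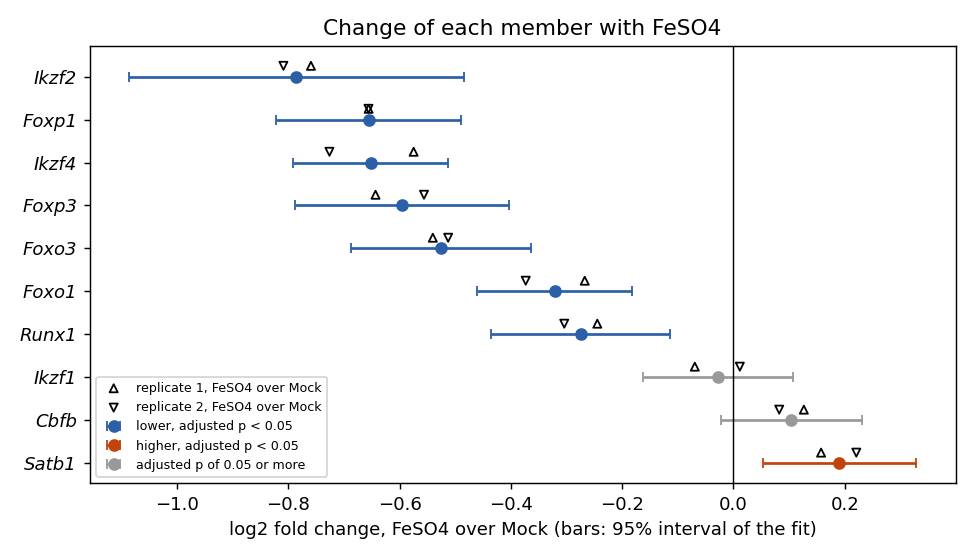
Log2 fold change of each member, FeSO4 over Mock. Filled points are the estimates of the fit with their 95% intervals, blue where lower and orange where higher at an adjusted p under 0.05, gray otherwise, and open triangles are the log2 ratios of the libraries with the same replicate number. The intervals of 7 members lie below 0, that of Satb1 lies above 0, and those of Ikzf1 and Cbfb include 0.

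Within the Ikaros family the members parted. These zinc finger proteins bind DNA as dimers with each other, and Ikzf4 and Ikzf2 are the members linked most closely to Treg cells, where Eos helps Foxp3 silence target genes and Helios helps keep the Treg state stable. Ikzf4 stood at 264 and 290 CPM in Mock and at 177 and 175 CPM in FeSO4. The groups were far apart and the FeSO4 libraries nearly equal. The log2 fold change of Ikzf4 was -0.65 ± 0.07 (SE; a change of -36.4%; edgeR adjusted p = 3.75e-06), the smallest p of the 10 members. It passed under all 14 alternatives.

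Ikzf2 stood at 56.3 and 80.2 CPM in Mock and at 33.3 and 45.8 CPM in FeSO4. It had the widest spread between replicates of any member, with replicate 2 above replicate 1 by 0.51 on the log2 scale in Mock and 0.46 in FeSO4. The groups did not overlap, and the log2 fold change was -0.79 ± 0.14 (SE; a change of -42.0%; edgeR adjusted p = 0.000986). This value rested on single libraries: it was -0.50 without Mock replicate 2, -0.57 without FeSO4 replicate 1, -1.02 without Mock replicate 1 and -1.03 without FeSO4 replicate 2. Ikzf2 passed in each of these 4 fits, but not with DESeq2 (adjusted p = 0.0857), with a robust estimate of the spread (0.191) or with all genes of at least 1 count (0.114).

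Ikzf1, the founding family member, which is expressed throughout the lymphoid lineage, stood at 449 and 468 CPM in Mock and at 428 and 471 CPM in FeSO4. The groups overlapped. Ikzf1 differed by a log2 fold change of -0.03 ± 0.06 (SE; edgeR adjusted p = 0.809), with a 95% interval of -0.16 to 0.11. Ratios between the family members differed accordingly. There were 0.587 and 0.620 Ikzf4 reads per Ikzf1 read in the Mock libraries and 0.413 and 0.372 in the FeSO4 libraries. For Ikzf2 the ratio was 0.125 and 0.171 in Mock and 0.0777 and 0.0971 in FeSO4. Such ratios are taken within a library and do not depend on how libraries are scaled. In both, the FeSO4 libraries lay below the Mock libraries.

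The forkhead members all fell. Foxo1 and Foxo3 induce Foxp3 in developing iTreg cells, and Foxp1 shares many binding places with Foxp3 and helps hold it on chromatin. Foxo1 stood at 189 and 204 CPM in Mock and at 157 and 158 CPM in FeSO4. Both FeSO4 libraries were lower and nearly equal, and the log2 fold change was -0.32 ± 0.07 (SE; a change of -20.0%; edgeR adjusted p = 0.0025). With all genes of at least 1 count its adjusted p was 0.0517. Its exon model overlaps that of RP24-337A16.1 on the opposite strand by 674 bases.

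Foxo3, at a lower level, stood at 78.9 and 82.3 CPM in Mock and at 54.3 and 57.7 CPM in FeSO4. The distance between the groups was several times the distance within them. Foxo3 changed by -0.53 ± 0.08 on the log2 scale (SE; a change of -30.5%; edgeR adjusted p = 0.000143) and passed under all 14 alternatives. Within a library there were 2.40 and 2.48 Foxo1 reads per Foxo3 read in Mock and 2.90 and 2.73 in FeSO4, so the balance between these paralogs lay further towards Foxo1 in both FeSO4 libraries.

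Foxp1 stood at 169 and 192 CPM in Mock and at 107 and 122 CPM in FeSO4. Replicate 2 was the higher one in each group, as for Foxp3, and the groups did not overlap. The log2 fold change was -0.66 ± 0.08 (SE; a change of -36.5%; edgeR adjusted p = 2.23e-05), the ratio was -0.66 between libraries of either number, and the call held under all 14 alternatives.

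Runx1 and Cbfb, which bind DNA as a heterodimer with Runx1 touching the DNA and Cbfb stabilizing it, did not move together. Runx1 stood at 66.4 and 68.9 CPM in Mock and at 56.0 and 55.8 CPM in FeSO4. The groups did not overlap, and the log2 fold change was -0.28 ± 0.08 (SE; a change of -17.3%; edgeR adjusted p = 0.0177). The call was lost without Mock replicate 2 (adjusted p = 0.0815), without FeSO4 replicate 1 (0.0996) and without FeSO4 replicate 2 (0.0946), with log2 fold changes of -0.24 to -0.27, and with all genes of at least 1 count (adjusted p = 0.0836). Cbfb stood at 296 and 303 CPM in Mock and at 323 and 321 CPM in FeSO4. Both FeSO4 libraries were above both Mock libraries, but the log2 fold change of 0.10 ± 0.06 (SE; 95% interval -0.02 to 0.23) had an edgeR adjusted p of 0.247. The number of Runx1 reads per Cbfb read was 0.225 and 0.228 in Mock and 0.174 in both FeSO4 libraries.

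Satb1, a chromatin organizer that prepares the Treg enhancers in thymic precursors and is held down by Foxp3 in mature Treg cells, was the 1 member called higher. It stood at 298 and 314 CPM in Mock and at 333 and 366 CPM in FeSO4. Both FeSO4 libraries lay above both Mock libraries, and the log2 fold change was 0.19 ± 0.07 (SE; a change of 14.1%; edgeR adjusted p = 0.0486). The direction was the same under all 14 alternatives but the call passed in 7 of them. It was lost with each other scaling (adjusted p = 0.0535 to 0.193), and the log2 fold change was 0.12 without FeSO4 replicate 2 and 0.15 without Mock replicate 1 (adjusted p = 0.392 and 0.194).

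Levels per kilobase of exon (CPM per kb, mean ± SD, n = 2 each) allow the members to be compared with each other. In Mock, Foxp3 was the highest at 161.9 ± 19.1, followed by Cbfb at 102.8 ± 1.77, Ikzf1 at 77.5 ± 2.19, Ikzf4 at 46.2 ± 3.13, Foxo1 at 35.4 ± 1.90 and Satb1 at 32.7 ± 1.21. Below these came Foxp1 at 15.1 ± 1.36, Foxo3 at 11.2 ± 0.328, Runx1 at 8.68 ± 0.231 and Ikzf2 at 7.25 ± 1.79. The ranges of neighbors in this order did not overlap in Mock, with Runx1 (8.52 to 8.84) and Ikzf2 (5.98 to 8.51) nearly touching. In FeSO4, Cbfb at 110.6 ± 0.498 and Foxp3 at 107.2 ± 17.2 overlapped at the top. Satb1 at 37.3 ± 2.54 stood above Ikzf4 at 29.4 ± 0.188 and Foxo1 at 28.4 ± 0.0497, the reverse of Mock. These are levels, and they rest on exon lengths of an mm9 annotation that may differ from the one used for counting.

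The ratio of Foxp3 reads to those of each other member within a library sorted the members. Per Satb1 read there were 1.97 and 2.21 Foxp3 reads in Mock and 1.13 and 1.29 in FeSO4. On the log2 scale this ratio was lower in FeSO4 by 0.79 on average, and the ratios to Cbfb, Ikzf1, Runx1 and Foxo1 changed by -0.70, -0.57, -0.33 and -0.28. For these 5 members both FeSO4 libraries lay below both Mock libraries. Per Foxp1 read there were 3.48 and 3.62 Foxp3 reads in Mock and 3.51 and 3.88 in FeSO4, and these overlapped. The ratios to Ikzf4, Foxo3 and Ikzf2 overlapped as well, with mean changes of 0.05, -0.07 and 0.18. These ratios are a description and were not tested.

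**Figure D3:**
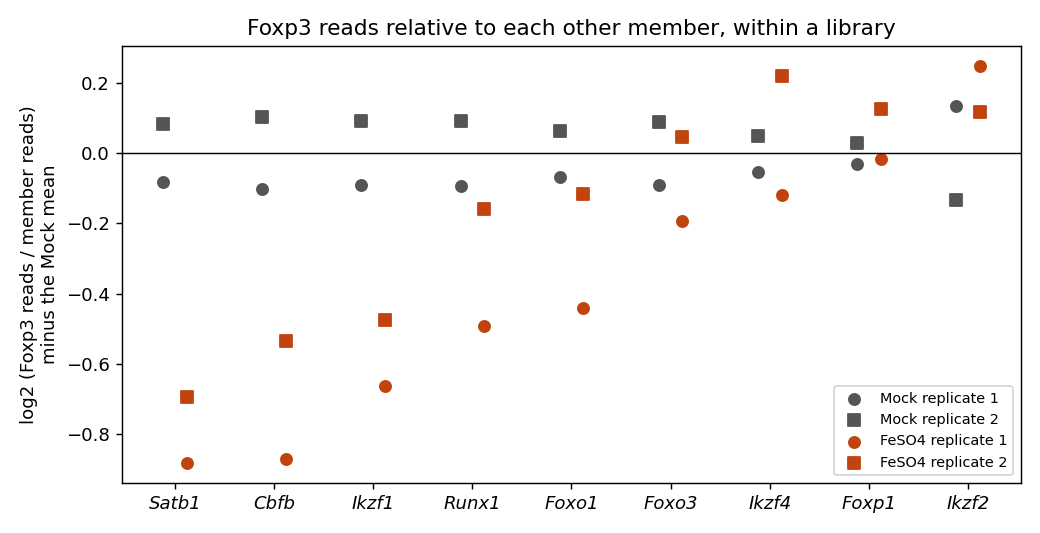
Log2 ratio of Foxp3 reads to the reads of each other member within a library, shown as the distance from the Mock mean of that ratio. Circles are replicate 1 and squares replicate 2, gray for Mock and orange for FeSO4, and members are ordered by the mean change, from -0.79 for Satb1 to 0.18 for Ikzf2. For Satb1, Cbfb, Ikzf1, Runx1 and Foxo1 the FeSO4 libraries lie below the Mock libraries.

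Among the 8522 genes that averaged 10 CPM or more, Foxp3 included, likeness to Foxp3 was measured as the root-mean-square difference of mean-centered log2 CPM over the 4 libraries, where 0 is an identical pattern. The 5 nearest genes were Fam19a3 (0.018), Tcn2 (0.0388), Rbak (0.0413), Gnaq (0.0519) and Mll3 (0.0552), with mean levels of 11.1 to 108 CPM. Of the members, Foxp1 ranked 9 (0.0617), Foxo3 ranked 95 (0.113), Ikzf4 ranked 141 and Ikzf2 ranked 183. Satb1 was the least like Foxp3 of the 9, at rank 5997. With 4 libraries many genes come close to any pattern, and no p was computed.

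Around the members, 7 lists of related genes were examined, 109 genes in all of which 106 were tested. Together 28 passed the threshold as lower and 17 as higher. Over all genes tested, 9.17% were lower and 10.9% higher, or 20% in either direction, and the shares below are to be read beside these. Leaving out FeSO4 replicate 1 left 16 lower genes, while the lower calls over all genes went from 1259 to 710, and keeping all genes of at least 1 count left 9 lower and 9 higher.

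Of 7 relatives of the members, 3 were lower and 0 higher (median log2 fold change -0.32). Ikzf3 (Aiolos) fell from 65.3 and 80.9 CPM to 52.8 and 50.4 CPM, a log2 fold change of -0.50 (edgeR adjusted p = 0.00128), and of -0.34 without Mock replicate 2. Foxp4 fell by 0.32 and Foxo4 by 0.38 on the log2 scale (edgeR adjusted p = 0.00263 and 0.0099), and Foxo4 was not called without Mock replicate 2 or without FeSO4 replicate 1. Runx3, which also pairs with Cbfb, stood at 177 and 187 CPM in Mock against 169 in both FeSO4 libraries, and was not called (-0.11, edgeR adjusted p = 0.253).

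Of 25 other factors that act at the Foxp3 locus, 12 were lower and 2 higher, with a median log2 fold change of -0.14. Stat5a, which carries the IL-2 signal to Foxp3, fell from 155 and 152 CPM to 115 and 110 CPM, a log2 fold change of -0.45 (edgeR adjusted p = 0.000167), and Stat5b changed by -0.24. Tet3, a dioxygenase that helps to demethylate DNA, changed by -0.48 (edgeR adjusted p = 0.000239), Klf2 by -0.51, Nfatc2 by -0.35, the NF-κB subunit Rel by -0.34, the histone methyltransferase Kmt2d by -0.32 and Ets1 by -0.30. Rara, Nfatc1 and Bcl11b changed by -0.27, -0.22 and -0.21. The Nfatc1 and Bcl11b calls were lost without Mock replicate 2 and without FeSO4 replicate 2. The Stat5b call was lost without Mock replicate 2. Gfi1 had 70 and 47 reads in Mock and 9 and 16 in FeSO4. Its call was lost without Mock replicate 1 and without FeSO4 replicate 1 (adjusted p = 0.0725 and 0.127). Nr4a1, an early gene of T cell receptor signaling that can activate the Foxp3 promoter, rose from 28.6 and 36.0 CPM to 57.5 and 56.1 CPM, a log2 fold change of 0.81 (edgeR adjusted p = 2.73e-05). Uhrf1, which helps maintain DNA methylation, was higher by 0.24, and this call was lost without Mock replicate 2, without FeSO4 replicate 1, with library size only and with all genes of at least 1 count. Smad2, Smad3 and Smad4, which carry the TGF-β signal, were not called (0.14, -0.02 and -0.14), nor were the NF-κB subunits Rela and Nfkb1 (-0.12 and 0.01) or Tet2 (-0.11). Without FeSO4 replicate 1, 5 of the 25 were lower, and Stat5b, Ets1, Rel, Rara, Nfatc1 and Bcl11b were among the calls lost.

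**Figure D4:**
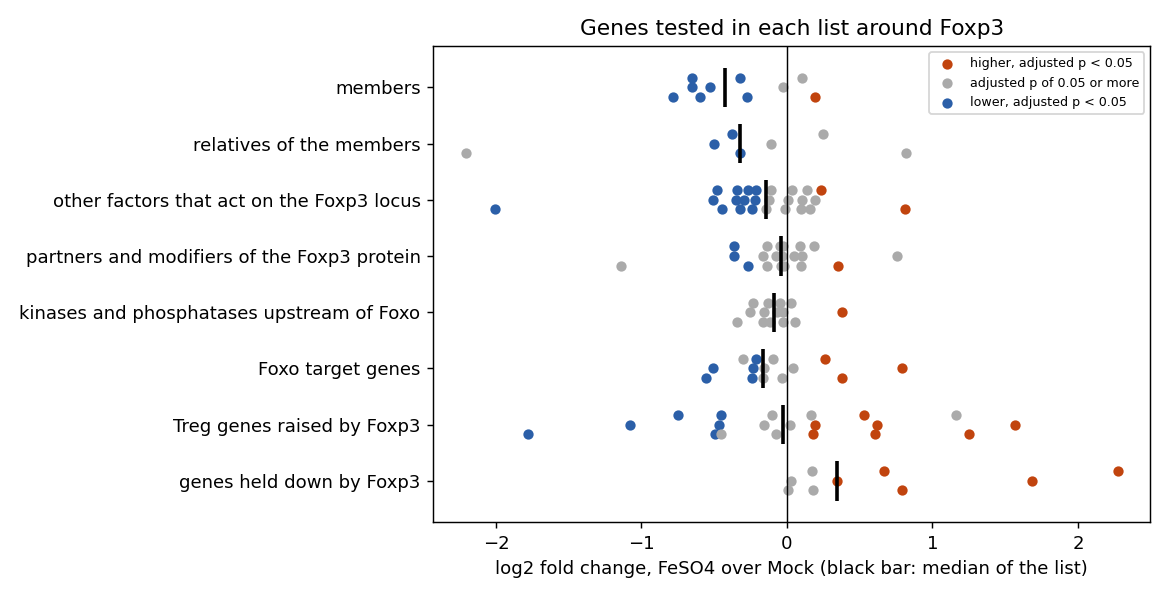
Log2 fold change, FeSO4 over Mock, of the tested genes in each list, with the members in the top row. Each point is a gene, blue where lower and orange where higher at an adjusted p under 0.05, gray otherwise, with small vertical offsets for legibility and a black bar at the median. The medians run from -0.42 for the members to 0.34 for the genes held down by Foxp3.

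Among 20 tested partners and modifiers of the Foxp3 protein, 3 were lower and 1 higher, with a median of -0.04. These 4 of 20 are the same share as the 20% called over all genes. The acetyltransferase Ep300 changed by -0.36 (edgeR adjusted p = 0.00313), the kinase Pim1 by -0.36 (0.00617) and the transcription factor Gata3 by -0.27 (0.0321). With a library left out, Ep300 ran from -0.473 to -0.249, Pim1 from -0.525 to -0.208 and Gata3 from -0.365 to -0.169. The Ep300 call alone of these 3 held without FeSO4 replicate 1 and without Mock replicate 2. Gata3 was also not called without Mock replicate 1, and Pim1 was also not called with DESeq2. None of these 3 calls held with all genes of at least 1 count. The deacetylase Hdac7 rose from 377 and 363 CPM to 457 and 487 CPM (log2 fold change 0.35, edgeR adjusted p = 0.0007). Kat5, Hdac1, Ezh2, Stub1 and Usp7 were not called, with log2 fold changes between -0.07 and 0.10.

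Of 14 kinases and phosphatases that govern Foxo proteins, 0 were lower and 1 was higher. Under other settings 0 to 6 were lower, the most with library size only, and 4 without Mock replicate 1. The higher gene was Pik3ip1, an inhibitor of PI3K (log2 fold change 0.38, edgeR adjusted p = 0.0241), which was not called without Mock replicate 2 or without FeSO4 replicate 2 (0.20 without the latter). Akt1, Akt2 and Sgk1, whose products phosphorylate Foxo proteins, changed by -0.05, -0.02 and 0.03 and were not called.

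Foxo target genes moved both ways. Of 14 tested, 5 were lower and 3 higher (median -0.16). Il7r, the IL-7 receptor, rose from 61.9 and 72.3 CPM to 98.0 and 134 CPM (log2 fold change 0.79, edgeR adjusted p = 0.000109), and Tcf7 was higher by 0.26. The trafficking genes Klf2, Ccr7 and S1pr1 changed by -0.51, -0.24 and -0.21, Irs2 by -0.55, and Sesn3 by -0.23. Without FeSO4 replicate 1, 2 were lower, without Mock replicate 2, 3 were lower, and without FeSO4 replicate 2, 6 were lower and 1 was higher. Sesn3 and S1pr1 lost their calls without FeSO4 replicate 1 or Mock replicate 2, Ccr7 without replicate 1 of either group, and Tcf7 without FeSO4 replicate 2.

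Genes that Foxp3 is known to raise in Treg cells also parted, with 7 of 20 higher and 6 lower (median -0.03). The lower ones were Gpr83, which fell from 9.27 and 14.2 CPM to 2.77 and 4.03 CPM (log2 fold change -1.78, edgeR adjusted p = 7.05e-05), Izumo1r (folate receptor 4, -1.08), Nrp1 (-0.75), Lrrc32 (which carries latent TGF-β on the surface, -0.49), Itgae (-0.47) and Nt5e (-0.46). The higher ones were Il10 (1.57), Fgl2 (1.25), Ebi3 (0.62), Icos (0.61), Entpd1 (0.53), Socs2 (0.19) and Capg (0.18), and the last 2 passed in 8 of 14 alternatives each. Socs2 and Capg were lost without either FeSO4 replicate, and Socs2 also without Mock replicate 1 and Capg without Mock replicate 2. Ebi3 was lost without Mock replicate 2 and without FeSO4 replicate 2. Il2ra, Ctla4 and Tnfrsf18, core Treg surface genes, were not called (0.02, 0.17 and -0.16). Ctla4 ran from -0.03 to 0.35 with a library left out and was called higher without FeSO4 replicate 1, and Tnfrsf18 was called lower without Mock replicate 2, with library size only and with the replicate block. Leaving out FeSO4 replicate 1 brought the change of Izumo1r to -0.67, leaving out FeSO4 replicate 2 brought it to -1.69, and it was not called with DESeq2, with the robust estimate of the spread or with all genes of at least 1 count. Without FeSO4 replicate 2, 4 of the list were higher.

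Of 9 tested genes that Foxp3 is known to hold down, 5 were higher and 0 lower, with a median of 0.34. This count was 5 without any single library and 4 with all genes of at least 1 count. Il4 had 26 and 43 reads in Mock and 113 and 177 in FeSO4 (log2 fold change 2.27, edgeR adjusted p = 0.000263), and Ifng 106 and 139 reads in Mock and 382 and 299 in FeSO4 (1.69, edgeR adjusted p = 6.56e-05), so these cytokine genes of other helper lineages rose from low levels. Il7r was also in this list, Dpp4 rose by 0.67 and Pde3b by 0.34. Il2, a classic target of repression by Foxp3, was not tested, with 5 to 9 reads in each library. The medians and counts of these lists are descriptions beside those of all genes tested, and no test compared a list with other genes.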

How the data were processed

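Libraries were grouped by their labels. The authors deposited raw read counts per Ensembl gene. The submitters' processing notes name Trim Galore 0.6.7, STAR 2.7.9a, featureCounts and build mm10, whereas the methods name STAR, mm9 and DESeq. The strand setting and annotation are not given in the sources used here, so reads of overlapping antisense genes could not be separated. Positions and exon lengths came from mm9 (GENCODE M1) and sequences from RefSeq (GRCm38.p6). The 5 rows of reads assigned to no gene were left out. As shares of gene reads and unassigned reads together, no feature was 4.36 to 6.03%, ambiguous 3.78 to 3.91% and more than 1 alignment 4.27 to 4.62%. A count of 3 equals 0.0734 to 0.0853 CPM.

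Counts were fitted in R 4.3.3 with edgeR 4.0.16: filterByExpr, TMM scaling, quasi-likelihood F test on the group, and Benjamini-Hochberg adjustment over the 13732 genes kept. Log2 CPM for likeness used a prior count of 2. Alternatives were DESeq2 1.42.0, limma-voom (limma 3.58.1), other scalings and filters, a replicate block, and each library left out in turn. The fit was tested on simulated data. Replicates differed by more than sampling noise (chi-square per degree of freedom 11.4 in Mock, 9.02 in FeSO4).

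The members, lists and tests were chosen with earlier results of these data known. All members, the listed genes, the markers by list and the 5 genes most like Foxp3 could be named. Some listed genes are not reported here by name.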

Additional observations from a re-analysis of the deposited data

How the results depend on the processing

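Of the 7 lower members, 7 were called in each other scaling, with limma-voom, with the replicate block, with at least 10 counts in every library and with the older quasi-likelihood method of edgeR, 6 with DESeq2 and with a robust estimate of the spread, 5 at the study's threshold, 6 to 7 with a library left out, and 3 with all genes of at least 1 count, where 304 genes were lower and 524 higher in all. The 1 higher member, Satb1, was 0 with the size factors of DESeq2, the upper quartile, library size only, all genes of at least 1 count, the older method and the study's threshold, and 0 to 1 with a library left out. The robust and older methods were chosen after seeing the data. The log2 fold change of Foxp3 ran from -0.77 to -0.44 with a library left out and was -0.59 (adjusted p = 0.067) with all genes of at least 1 count. It was -0.60 with the replicate block (adjusted p = 1e-07), which changed no call among the members and gave 34 lower and 22 higher list genes. Deviations of same-numbered libraries correlated by 0.029 over all genes tested and by 0.22 over 8522 genes of at least 10 CPM. The methods speak of pairs, but the labels do not say that the number marks a pair, so the fit without the block was kept. With the block, 4 kinases and phosphatases upstream of Foxo were lower in place of 0, 7 genes held down by Foxp3 were higher in place of 5, 4 factors at the Foxp3 locus were higher in place of 2, and 8 Treg genes raised by Foxp3 were lower in place of 6. The log2 fold change of Ikzf1 ran from -0.095 to 0.044 with a library left out, and its sign changed without Mock replicate 2 (0.006) and without FeSO4 replicate 1 (0.044). The 28 lower list genes were 16 to 30 and the 17 higher ones 12 to 17 with a library left out, and 9 and 9 with all genes of at least 1 count. Library size only moved the median of all genes to -0.07, with 1810 lower and 980 higher. The cause of these shifts was not tested.

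An SD over 2 libraries is the size of 1 difference, so single genes were judged by the fit across all genes, in which the spread is shared. With a library left out, the lone library of a group was assumed to vary like the other group.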
